A study of Homo sapiens with 21 samples.

Results

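The genes described are the human zinc finger genes named ZNF followed by a number, as measured by RNA-seq in the human melanoma line SK-MEL-147. The deposited table lists 26475 genes, of which 476 carry such a name, and 322 of these were selected on a mean CPM (a gene's counts scaled to the size of its library) of at least 5 over all 21 libraries. All 322 passed the filter on low counts and were tested among 15062 genes. Just outside the threshold lay ZNF808, ZNF649 and ZNF775, with mean levels of 4.87, 4.90 and 4.94 CPM. Just inside lay ZNF823, ZNF613 and ZNF658, with mean levels of 5.08, 5.09 and 5.15 CPM.

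C2H2 zinc finger proteins read DNA through tandem fingers that are each held by cysteines and histidines around a zinc ion. Many of them carry a KRAB box at the amino-terminal end, which recruits the corepressor TRIM28 (KAP1) and, through it, the histone H3 lysine 9 methyltransferase SETDB1 and HP1 proteins. KRAB zinc finger genes have multiplied by tandem duplication, mostly in clusters on chromosome 19, and many of their proteins silence transposable elements. Their own genes are known to be covered by H3 lysine 9 methylation.

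The name of the gene does not show the KRAB box, so the coding sequences were translated and searched for it. A KRAB box was found in 196 of the 322 members (60.9%). No box was found in 109 members (33.9%) with at least 2 C2H2 fingers. None was found in 16 (4.97%) with fewer than 2 fingers, and 1 had no coding transcript. The KRAB label therefore holds for most of the members. For 125 of them the search did not bear it out (1 could not be classed), and both classes are kept apart below. The search needed at least 11 of 15 conserved positions in an ungapped window, so a divergent box would be missed. Members said below to have no KRAB box are those in which the search found none. The box scores fell into separate ranges, with 196 members matching 11 to 15 of the 15 conserved positions, 13 matching 6 to 9 and 112 matching 3 to 5. Whether the 13 in the middle range hold a divergent box was not tested. KRAB box members had a median of 12 fingers, against 8 in the finger genes without the box.

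Poly-A selected RNA was sequenced on an Illumina instrument from 7 groups of 3 replicates, 6 of them treated with a small molecule. TP-472 is a ligand of the BRD9 and BRD7 bromodomains. GSK-591 blocks PRMT5, which dimethylates arginine symmetrically, GSK-484 blocks the arginine deiminase PADI4, and MS023 blocks type I arginine methyltransferases. JQ-1 binds the BET bromodomain proteins, and UNC0642 inhibits EHMT1 and EHMT2 (GLP and G9a), which methylate histone H3 on lysine 9. The last group was left untreated. The sources used here give neither dose nor duration of treatment nor a vehicle. All groups share 1 cell line. The replicates are called biological, but no source says that each was its own culture; the p-values therefore reflect the spread among these libraries, part of which may be technical. Libraries held 20978182 to 78776788 counts, and the members took 0.68 to 0.79% of each. Of the melanocytic markers, SOX10 stood at 349.1 to 602.8 CPM and MITF at 9.24 to 19.01 CPM, while PMEL, MLANA, TYR, TYRP1, DCT and S100B were under 1 CPM in every library. AXL and VIM, of a mesenchymal-like melanoma state, were high, at 1770 to 2065 CPM and 7060 to 12500 CPM, while the blood marker PTPRC, the endothelial marker PECAM1 and the epithelial marker EPCAM did not exceed 0.0748, 0.441 and 1.202 CPM. KRT18, another epithelial marker, stood at 47.8 to 66.7 CPM, and the fibroblast markers ACTA2 and PDGFRB reached 2.09 and 5.03 CPM.

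Chromosome 19 held 158 of the members (49.1%), and 131 of these had a KRAB box. Chromosomes 16, 1 and 7 followed with 21, 17 and 17 members. On chromosome 19 the members formed 18 blocks of 1 to 33 members when neighbours within 500000 bases were joined. The members' mean level ran from 5.08 to 176.7 CPM, with a median of 14.8 CPM against 20.97 CPM over all genes tested. Per kilobase of the median annotated transcript, ZNF638, which takes part in the silencing of unintegrated retroviral DNA, was highest at 134.7 CPM per kilobase, followed by ZNF532 at 109.8 CPM per kilobase. ZNF84 was the highest KRAB box member on that scale, at 75.5 CPM per kilobase. The median transcripts of ZNF638, ZNF532 and ZNF84 were 760, 620 and 647 bases long. That is too short to encode their proteins of 1978, 1301 and 738 residues. The ranking therefore rests on short annotated transcripts and does not show which members are most abundant. The range between groups was small for most members: the highest group mean was a median of 1.37-fold above the lowest, against 1.54-fold over all genes tested, and the largest such ratio was 10.7-fold, for ZNF618. Genes tested go down to a mean of 0.084 CPM, so the 2 medians are not matched in level. Expected counts of 156 members were fractional in at least 1 library, which means reads that fit more than 1 gene, and 166 members had whole counts (within 1e-06) throughout.

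Promoters were given for 281 of the 322 members in the RefSeq table (GRCh38.p14), and they are shown here for the 4 largest falls with UNC0642 (ZNF850, ZNF493, ZNF486 and ZNF100) and for ZNF274, all KRAB box members. In the 250 bases before the start, the ETS-type motif CCGGAAG was found on either strand in 32.4% of the members' promoters. The share was 35.6% for KRAB box members, 27.1% for members without the box, 14.9% for all genes tested with a promoter and 8.82% for all promoters in the table. The motif CCAAT was found on either strand in 44.8% of members and in 52.3% of KRAB box members, against 35.3% of genes tested and 33.0% of all promoters. Of members lower with UNC0642 in both comparisons 35.0% held CCGGAAG, close to the share of all KRAB box members. The motifs as spelled do not overlap each other, and a match describes the letters only. Capitals mark CCGGAAG and CCAAT and their reverse complements, and each sequence reads 5′ to 3′ towards the start of the gene.
ZNF274: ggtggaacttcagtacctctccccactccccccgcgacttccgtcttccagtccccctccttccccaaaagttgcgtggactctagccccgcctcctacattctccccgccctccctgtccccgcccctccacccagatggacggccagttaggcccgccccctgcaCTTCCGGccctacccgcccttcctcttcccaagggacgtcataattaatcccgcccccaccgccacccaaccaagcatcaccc
ZNF850: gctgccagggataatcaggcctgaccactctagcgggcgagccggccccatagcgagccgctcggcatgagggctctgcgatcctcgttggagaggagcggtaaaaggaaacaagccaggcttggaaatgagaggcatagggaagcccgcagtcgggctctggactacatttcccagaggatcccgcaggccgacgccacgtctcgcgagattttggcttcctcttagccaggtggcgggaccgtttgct
ZNF493: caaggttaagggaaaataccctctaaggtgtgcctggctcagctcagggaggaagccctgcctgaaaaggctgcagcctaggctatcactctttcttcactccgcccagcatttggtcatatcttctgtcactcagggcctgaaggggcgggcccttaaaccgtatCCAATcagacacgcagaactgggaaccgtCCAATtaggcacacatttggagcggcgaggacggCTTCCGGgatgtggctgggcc
ZNF486: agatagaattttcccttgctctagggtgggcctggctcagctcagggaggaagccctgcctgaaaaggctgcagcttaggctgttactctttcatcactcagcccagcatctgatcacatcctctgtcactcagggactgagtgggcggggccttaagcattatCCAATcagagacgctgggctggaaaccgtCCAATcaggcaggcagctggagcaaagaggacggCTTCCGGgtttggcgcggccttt
ZNF100: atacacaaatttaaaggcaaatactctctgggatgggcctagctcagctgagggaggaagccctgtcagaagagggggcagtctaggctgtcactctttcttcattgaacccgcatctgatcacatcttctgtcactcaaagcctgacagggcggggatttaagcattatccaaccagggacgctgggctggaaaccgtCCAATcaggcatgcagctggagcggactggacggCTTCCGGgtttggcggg
These windows lie at chr19:58182811-58183060 on the plus strand (ZNF274), chr19:36772808-36773057 on the minus strand (ZNF850), chr19:21396883-21397132 on the plus strand (ZNF493), chr19:20166964-20167213 on the plus strand (ZNF486) and chr19:21767580-21767829 on the minus strand (ZNF100). The last 3 resemble each other: in pairwise alignments 76.1 to 79.8% of the columns were identical, and each window holds CTTCCGG downstream of 1 or 2 CCAAT. ZNF850 holds neither motif, and 49.0 to 51.2% of its aligned columns were identical with those 3. ZNF274 holds CTTCCGG and no CCAAT. Of 18 promoters looked up among the members named for JQ-1 and UNC0642, the 4 printed with CTTCCGG are the only ones that hold it.

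Untreated libraries stood apart from the treated ones in how their counts followed GC content, and this touches every comparison with them. Log2 CPM changed by -0.18, -0.10 and -0.12 per 10 percentage points of transcript GC in the untreated libraries, against -0.04 to 0.13 in the treated ones. KRAB box members are poor in GC, with a median of 44.5% against 51.4% for finger genes without the box and 49.8% for all genes tested. Across the 322 members, which share libraries and depth, the log2 fold change against untreated cells followed GC with a Spearman coefficient of 0.60 to 0.67 for 5 compounds and 0.10 for JQ-1. A second comparison therefore set each compound against the other treated groups (JQ-1 left out of that average) after the GC trend of each library was removed; the 2 comparisons share the compound's libraries. In it the coefficients were -0.15 to 0.02 for 5 compounds and 0.26 for UNC0642. A gene is called at an adjusted p under 0.05 in the edgeR quasi-likelihood test over all genes tested. The shares given over all genes include genes under the members' threshold, down to a mean of 0.084 CPM. They are therefore not matched to the members in level. The largest changes named per compound were picked among called members whose libraries do not overlap the untreated ones. For them lack of overlap was a condition of choice and adds no support.

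JQ-1 changed more members than any other compound, in both directions. Against untreated cells 113 of 322 members rose (35.1%) and 117 fell (36.3%), shares close to those over all genes tested (35.7% higher and 37.6% lower). Set against the other treated groups, 160 rose and 86 fell (49.7 and 26.7%), with 45.7% of all genes higher and 34.4% lower. Removing the GC trend alone gave 148 higher and 87 lower, and scaling by total counts, which moves the median of all genes to -0.15 (log2), gave 79 higher and 145 lower. In both comparisons 110 members were higher and 84 lower (34.2 and 26.1%), with 34.6 and 31.9% over all genes. In bulk RNA, fewer cells that express a gene and less of its RNA per cell cannot be told apart.

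The largest falls with JQ-1 were in zinc finger genes outside the KRAB class. ZNF618 (chr9:113876282-114056591, hg38), whose protein binds UHRF2, had 5.67, 6.18 and 6.08 CPM in JQ-1 libraries, against 62.6, 63.2 and 52.6 CPM in untreated ones. The other 18 libraries, treated or not, all lay at 52.4 CPM or more. The log2 fold change was -3.32 ± 0.09 (SE, adjusted p = 3.42e-19), and -3.22 against the other treated groups. ZNF532 (chr18:58862600-58986480), a chromatin-reader partner that is fused to NUTM1 in some NUT carcinomas, had 8.38, 8.98 and 9.87 CPM with JQ-1, against 81.8, 80.3 and 71.0 CPM in untreated cells. The groups did not overlap, and the log2 fold change was -3.10 ± 0.08 (SE, adjusted p = 2.83e-19). ZNF592 and ZNF687, found in a complex with ZNF532 and ZMYND8, rose: ZNF592 had a log2 fold change of 0.39 ± 0.06 (SE, adjusted p = 4.59e-06) and ZNF687 of 0.45 ± 0.04 (SE, adjusted p = 4.43e-09).

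Further falls with JQ-1 were smaller. The KRAB box member ZNF689 had 2.59, 2.35 and 1.86 CPM in JQ-1 libraries, against 11.5, 11.2 and 11.1 CPM in untreated ones, a log2 fold change of -2.30 ± 0.10 (SE, adjusted p = 1.74e-15). ZNF300, the other KRAB box member among the 10 largest falls, averaged 3.46 CPM with JQ-1 and 13.5 CPM in untreated cells. ZNF827, which recruits the NuRD complex to telomeres, had 18.6, 17.8 and 17.6 CPM with JQ-1, against 53.2, 53.3 and 52.1 CPM in untreated cells, with no overlap. ZNF521, a cofactor of blood and nerve progenitors, fell by 1.504 on the log2 scale, ZNF704 by 2.19, ZNF219, whose reads are shared with another gene in every library, by 1.96, ZNF710 by 1.44 and ZNF507 by 1.35. ZNF217, an oncogene of breast tumours, had 63.5, 69.3 and 66.6 CPM with JQ-1, against 133.0, 124.6 and 118.5 CPM in untreated cells, and fell by 0.92. The promoter-binding regulators ZNF148 and ZNF281 fell by 0.63 and 0.40, ZNF281 by 0.25 with the GC trend removed.

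The largest rises with JQ-1 were smaller than the largest falls and included KRAB box members. ZNF784 (chr19:55620742-55624601), which has no KRAB box, had 14.5, 15.2 and 15.3 CPM in JQ-1 libraries, against 5.55, 6.501 and 5.86 CPM in untreated ones, a log2 fold change of 1.33 ± 0.09 (SE, adjusted p = 2.12e-12). ZNF333 had 26.1, 26.6 and 26.4 CPM with JQ-1, against 12.9, 12.7 and 12.7 CPM in untreated cells. Its counts were fractional in 12 of 21 libraries, so part of its reads is shared with other genes. ZNF404 had 18.6, 17.9 and 16.2 CPM with JQ-1, against 9.78, 8.59 and 8.45 CPM in untreated cells, a log2 fold change of 0.98 ± 0.08. In each of these genes the JQ-1 libraries lay above all other libraries.

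ZNF274 (chr19:58183029-58213562), a KRAB protein known to bring SETDB1 to the 3′ ends of other zinc finger genes, was among the 10 largest rises. It had 86.1, 83.1 and 85.5 CPM in JQ-1 libraries, against 46.2, 46.2 and 46.9 CPM in untreated ones, a log2 fold change of 0.87 ± 0.04 (SE, adjusted p = 2.7e-14). The other treated groups averaged 43.7 to 51.4 CPM, with UNC0642 lowest at 43.7 ± 0.6 CPM (SD, n = 3). ZNF445, which guards imprinted loci, had 64.8, 62.9 and 68.9 CPM with JQ-1, against 41.4, 39.0 and 35.3 CPM in untreated cells (log2 fold change 0.76 ± 0.06, adjusted p = 7.8e-11). ZNF10, the source of the KRAB domain used in engineered repressors, had 10.0, 10.7 and 10.97 CPM with JQ-1, against 7.20, 6.14 and 6.93 CPM in untreated cells (log2 fold change 0.64 ± 0.09, adjusted p = 1.87e-06). For all 3 genes no JQ-1 library overlapped the untreated ones.

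**Figure D1:**
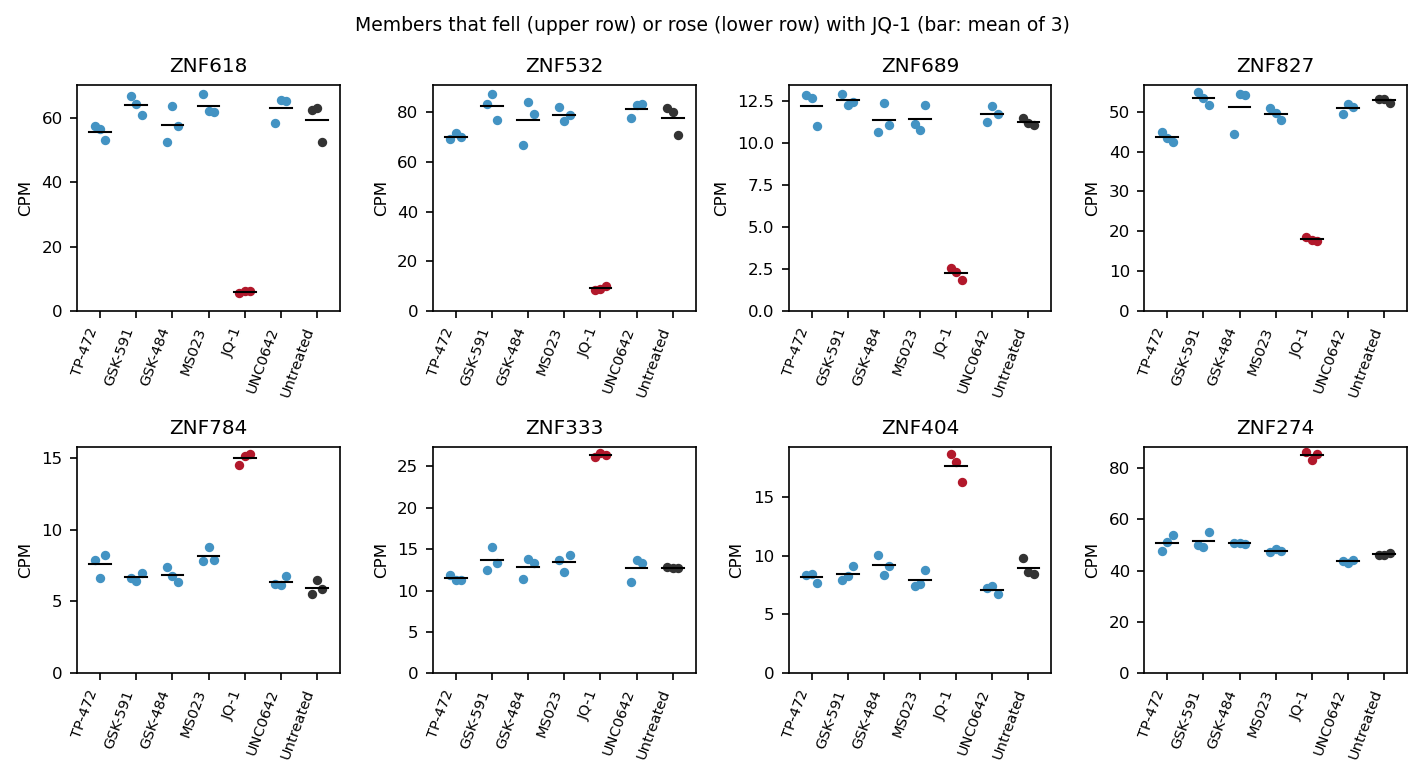
CPM of 8 members in each library, with compounds to the left of untreated cells, points for the 3 replicates and a bar at their mean. In the upper row the JQ-1 points lie below all others (for ZNF618 at 5.67 to 6.18 CPM), and in the lower row above all others (for ZNF274 at 83.1 to 86.1 CPM).

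Among members of known role with no KRAB box found, ZNF638 rose with JQ-1 to 142.4 CPM, against 100.4 CPM in untreated cells. ZNF207 (BuGZ), which acts at the mitotic spindle, rose to 136.4 CPM, against 107.8 CPM (log2 fold change 0.34, and 0.55 with the GC trend removed). ZNF703, a cofactor linked to luminal breast cancer, had 24.4, 26.4 and 24.6 CPM with JQ-1, against 14.8, 15.6 and 16.6 CPM in untreated cells. ZNF143, which binds promoters and loop anchors, averaged 26.7 CPM with JQ-1 and 25.2 CPM in untreated cells, with an adjusted p = 0.191, and a log2 fold change of 0.20 in the second comparison (adjusted p = 0.000173). ZNF263, which matched 7 of the 15 KRAB positions, averaged 26.9 CPM with JQ-1 and 25.9 CPM in untreated cells, with an adjusted p = 0.264.

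The direction of the KRAB box members with JQ-1 depended on the scaling, as did the median of all genes. Of 196 KRAB box members 74 rose and 65 fell against untreated cells (37.8 and 33.2%, with 35.7 and 37.6% over all genes tested), and scaling by total counts turned this to 48 higher and 83 lower. Against the other treated groups 104 rose and 42 fell (53.1 and 21.4%, with 45.7 and 34.4% over all genes). Of 125 members without the box 39 rose and 51 fell against untreated cells, and 56 rose and 44 fell against the other treated groups. Scaled by total counts, 31 of these 125 rose and 61 fell against untreated cells, and the median of all genes moved to -0.15 (log2). On chromosome 19, 55 of 131 KRAB box members rose and 39 fell against untreated cells (42.0 and 29.8%), where 46.3% of the other genes tested on that chromosome were higher and 28.1% lower. In the second comparison 75 of them rose and 23 fell (57.3 and 17.6%), where 45.4% of those other genes were higher and 34.6% lower. The difference between the classes was not tested. It was smaller among KRAB box members with whole counts, of which 29 of 64 rose and 20 fell in that comparison; of those that share reads, 75 of 132 rose and 22 fell.

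The summed level of the 131 KRAB box members on chromosome 19 was 2325, 2358 and 2298 CPM in JQ-1 libraries and 1949, 1995 and 1974 CPM in UNC0642 libraries, against 2243, 2117 and 2146 CPM in untreated ones. In these sums, scaled by TMM, JQ-1 libraries were the highest of all groups and did not overlap untreated ones. Scaled by total counts instead, 35 of the 131 were called higher and 48 lower with JQ-1, so this order may not hold under that scaling. UNC0642 libraries lay below untreated ones. TP-472 libraries, at 2097, 2023 and 2045 CPM, and MS023 libraries, at 2000, 1976 and 2032 CPM, also lay below untreated ones, and the MS023 range overlapped that of UNC0642. The 65 KRAB box members elsewhere summed to 1227, 1229 and 1214 CPM with JQ-1 and 1208, 1233 and 1227 CPM with UNC0642, against 1303, 1229 and 1232 CPM in untreated cells, and these ranges overlapped or touched. Members without the box summed to 3861, 3889 and 3893 CPM with JQ-1 and 4125, 4265 and 4254 CPM with UNC0642, against 4231, 4145 and 4066 CPM in untreated cells. Here JQ-1 libraries were lowest, and UNC0642 overlapped untreated cells.

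**Figure D2:**
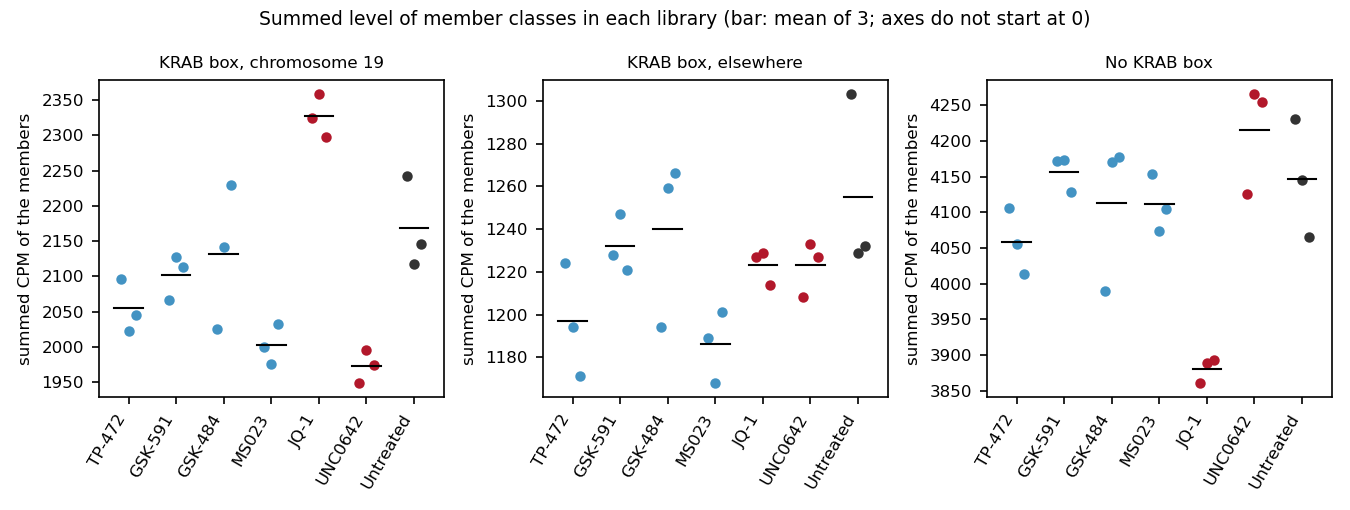
Summed CPM, scaled by TMM, of 3 classes of members in each library, with compounds to the left of untreated cells. Points show the 3 replicates and a bar their mean, and the axes do not start at 0. For KRAB box members on chromosome 19 the JQ-1 libraries (2298 to 2358 CPM) lie highest and the UNC0642 mean (1973 CPM) is the lowest of the 7.

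With UNC0642, the EHMT1 and EHMT2 inhibitor, more KRAB box members were called lower than higher. Most of the lower ones lay on chromosome 19, which holds 131 of all 196. Against untreated cells 53 of 322 members fell (16.5%) and 23 rose (7.14%), with 7.54% of all genes lower and 8.71% higher. Of the KRAB box members 45 of 196 fell (23.0%) and 2 rose; of the members without the box 8 of 125 fell and 21 rose. On chromosome 19, 34 of 131 KRAB box members fell (26%) and 0 rose, while of 786 other genes tested on that chromosome 1.4% were lower and 22.5% higher. That contrast keeps the GC trend of the untreated libraries, and KRAB box members are poor in GC. With the trend removed, 14 of the 131 fell against untreated cells. Against the other treated groups 89 members fell and 37 rose (27.6 and 11.5%), with 14.8% of all genes lower and 13.2% higher. In that comparison 58 of the 131 KRAB box members on chromosome 19 fell (44.3%) and 3 rose, and 16.5% of the other genes on the chromosome were lower. Of the 65 KRAB box members on other chromosomes, 11 were lower and 2 higher against untreated cells, and 11 were lower and 7 higher in the second comparison, where the 11 are not all the same genes. UNC0642 was the group with the lowest mean for 47 of the 131, more than any other group, and JQ-1 for 36.

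The changes were small. The 131 KRAB box members on chromosome 19 had a median log2 fold change of -0.14 against untreated cells and -0.13 against the other treated groups, with all genes at 0.02 and -0.02. The largest fall was in ZNF850 (chr19:36714383-36772825), with 8.47, 7.92 and 7.59 CPM in UNC0642 libraries, against 12.6, 11.5 and 11.7 CPM in untreated ones (log2 fold change -0.59 ± 0.08, SE, adjusted p = 0.00023). Its UNC0642 mean was the lowest of the 7 groups, and MS023 followed at 8.23 CPM. Against the other treated groups, with the GC trend removed, the log2 fold change was smaller, at -0.28 (adjusted p = 0.00271). How far the reference and the removal of the GC trend each account for this was not tested.

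Next came ZNF493, ZNF486 and ZNF100. ZNF493 had 4.75, 4.79 and 4.28 CPM with UNC0642, against 6.58, 7.24 and 6.24 CPM in untreated cells (log2 fold change -0.53 ± 0.09, adjusted p = 0.00109). ZNF486 had 4.87, 4.46 and 4.30 CPM with UNC0642, against 7.22, 6.12 and 5.46 CPM in untreated cells (-0.48 ± 0.12, adjusted p = 0.0111). ZNF100 had 8.18, 7.44 and 7.05 CPM with UNC0642, against 10.1, 9.82 and 10.97 CPM in untreated cells (-0.45 ± 0.11, adjusted p = 0.0098). In each the UNC0642 libraries lay below the untreated ones without overlap. Their counts were fractional in 6, 15 and 17 of 21 libraries, so how the fall is divided among similar genes is uncertain. With the GC trend removed the adjusted p against untreated cells was 0.0513 for ZNF486 and 0.0658 for ZNF100. Without UNC0642 replicate 3 the adjusted p was 0.0605 for ZNF486 and 0.0574 for ZNF100, and for ZNF486 it was 0.0505 without UNC0642 replicate 2 and 0.0795 without Untreated replicate 1.

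Most members that rose with UNC0642 (21 of 23 against untreated cells) had no KRAB box. ZNF646 (chromosome 16), whose reads are shared in 19 of 21 libraries, had 27.5, 29.9 and 28.9 CPM with UNC0642, against 22.4, 22.2 and 20.4 CPM in untreated cells (log2 fold change 0.41 ± 0.07, adjusted p = 0.000883). ZNF628 and ZNF496 rose by 0.38 and 0.28 on the log2 scale, and all 3 also rose against the other treated groups. With the GC trend removed, ZNF646 came to 0.27 (adjusted p = 0.0377) and ZNF628 to 0.17 (adjusted p = 0.243) against untreated cells. ZNF628 also lost its call without UNC0642 replicate 3 (adjusted p = 0.0746) and without Untreated replicate 1 (adjusted p = 0.0812). In all 9 members were higher and 43 lower with UNC0642 in both comparisons, against 2.99 and 4.07% of all genes. ZNF462, whose mouse counterpart works with GLP and HP1, had 47.9, 58.2 and 55.6 CPM with UNC0642, against 51.9, 45.1 and 36.5 CPM in untreated cells (log2 fold change 0.28, adjusted p = 0.0934), and 0.45 against the other treated groups (adjusted p = 0.000804). ZNF644, the DNA-binding partner of EHMT1 and EHMT2, averaged 38.9 CPM with UNC0642 and 41.1 CPM in untreated cells (adjusted p = 0.44).

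GC content, shared reads and single libraries moved with the UNC0642 counts. With the GC trend removed and untreated cells as the reference, 18 of 196 KRAB box members were lower and 1 higher, of which 14 of the lower ones lay on chromosome 19, with 2.28% of all genes lower and 1.47% higher. Split at the members' median GC of 46.2%, 51 of 123 KRAB box members in the GC-poor part and 18 of 73 in the GC-rich part fell against the other treated groups, and of the members without the box 9 of 38 and 11 of 87. Of KRAB box members on chromosome 19 with whole counts, 5 of 31 fell against untreated cells and 12 of 31 against the other treated groups, with 0 and 1 higher. Without UNC0642 replicate 3, 19 KRAB box members (14 on chromosome 19) and 23 members in all were lower and 12 members higher, with 3.13% of all genes lower. Without Untreated replicate 1, 27 KRAB box members (21 on chromosome 19) and 33 members in all were lower, with 5.41% of all genes lower. The part of GC content in the result was not tested beyond these values.

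**Figure D3:**
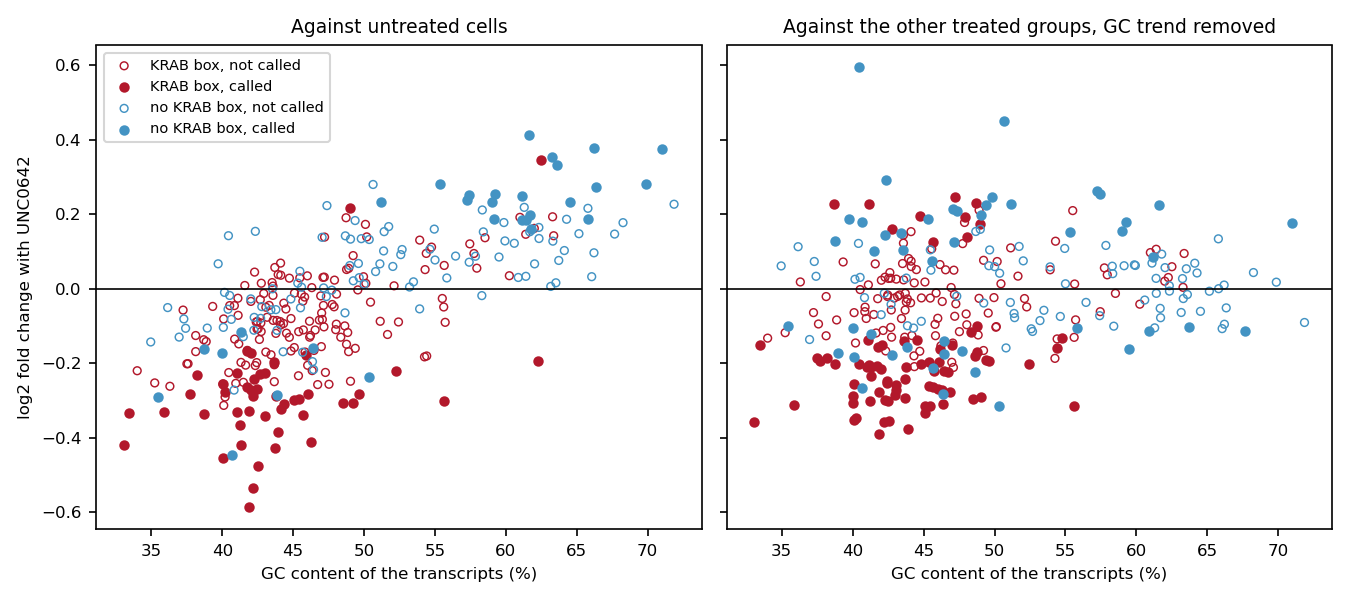
Log2 fold change with UNC0642 against transcript GC content, 1 point per member, for the comparison with untreated cells (left) and with the other treated groups after removal of the GC trend (right); filled points are called. On the left the points climb with GC (Spearman coefficient 0.67), and on the right most filled KRAB box points (69 of 79) lie below 0.

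Blocks of neighbours on chromosome 19 are given by their counts, to be read beside the shares over all genes tested (with JQ-1 35.7% higher and 37.6% lower, with UNC0642 8.71% higher and 7.54% lower). The block at chr19:36214602-37719790 holds 15 members, 12 with a KRAB box, and 9 of them fell and 0 rose with UNC0642 against untreated cells; 11 fell against the other treated groups. Among these ZNF529 had a log2 fold change of -0.33 (adjusted p = 0.000127), ZNF829 of -0.37 (adjusted p = 0.00557) and ZNF566 of -0.28 (adjusted p = 0.0161); with the GC trend removed ZNF566 came to -0.16 (adjusted p = 0.17). The block at chr19:51571298-53580269 holds 26 members, all with a KRAB box, and JQ-1 raised 16 and lowered 9 of them. Neighbours there moved apart: ZNF701 and ZNF347, with shared reads in 21 and 8 libraries, rose with JQ-1 by 0.78 and 0.71 on the log2 scale, while ZNF432 fell by 1.26. With UNC0642, 7 members of that block fell and 0 rose against untreated cells. The block of 33 members near the end of the chromosome, which includes ZNF274, had 15 higher and 7 lower with JQ-1 and 1 higher and 6 lower with UNC0642. These blocks and their genes were picked after the values were seen.

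**Figure D4:**
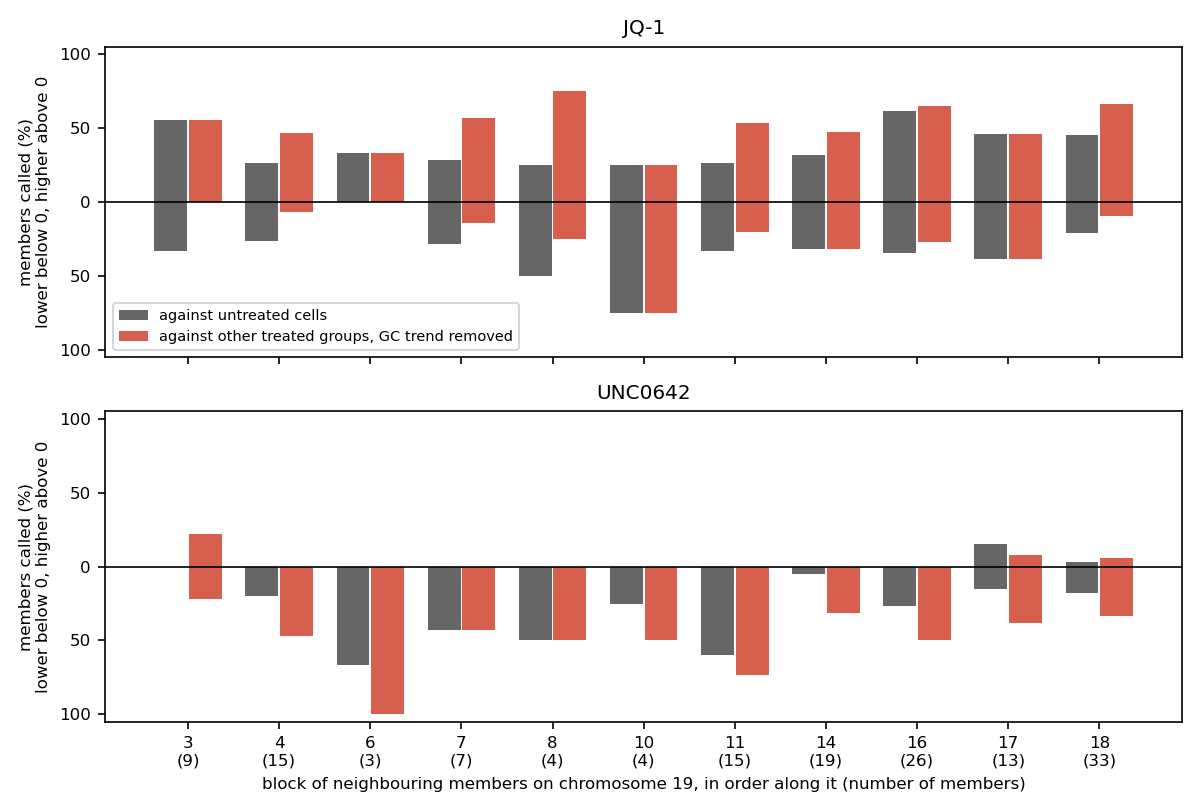
Share of members called higher (above 0) or lower (below 0) in the blocks of at least 3 members along chromosome 19, for JQ-1 and UNC0642 in both comparisons. With JQ-1 both directions occur in most blocks, and with UNC0642 the bars lie mostly below 0, as in block 11, where 9 and 11 of 15 members were lower.

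TP-472 changed fewer members in the second comparison than in the first. Against untreated cells 42 members rose and 59 fell (13.0 and 18.3%), with 17.3% of all genes higher and 14.5% lower. Of the KRAB box members 8 rose and 34 fell, and of the others 34 rose and 25 fell. In the second comparison 10 rose and 18 fell, with 4.99% of all genes higher and 6.82% lower. ZNF608 had 5.97, 6.58 and 6.28 CPM with TP-472, against 8.11, 8.75 and 7.16 CPM in untreated cells, with log2 fold changes of -0.35 (adjusted p = 0.0175) and -0.47 against the other treated groups (adjusted p = 0.000908). ZNF24, a SCAN-domain finger gene, had 105.6, 104.1 and 97.8 CPM with TP-472, against 140.0, 128.2 and 125.0 CPM in untreated cells (log2 fold change -0.35, adjusted p = 2.32e-05). In both genes the groups did not overlap, which was a condition for picking them. Single libraries weighed on these counts: 29 and 31 members were lower without TP-472 replicates 2 and 3, and 27 were higher and 20 lower without Untreated replicate 1. Over all genes the shares were 9.82 and 9.66% lower without those TP-472 replicates, and 10.3% higher and 7.95% lower without Untreated replicate 1. Removal of the GC trend gave -0.30 for ZNF608 (adjusted p = 0.0664) and -0.22 for ZNF24 (adjusted p = 0.00115). For ZNF608 the adjusted p was 0.0587 without TP-472 replicate 1 and 0.0622 and 0.0762 without Untreated replicates 1 and 2.

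With GSK-591, the PRMT5 inhibitor, 55 members rose and 43 fell against untreated cells (17.1 and 13.4%), with 18.1% of all genes higher and 14.8% lower. Of the KRAB box members 13 rose and 24 fell, and of the others 42 rose and 19 fell. Against the other treated groups the KRAB box members leaned the other way, with 21 higher and 2 lower. All members came to 30 higher and 5 lower, with 6.75% of all genes higher and 4.23% lower. That reference includes MS023 and UNC0642, the groups with the lowest summed level of KRAB box members. Their means were 3189 and 3195 CPM, against 3334 CPM with GSK-591 and 3423 CPM in untreated cells. How far the reference sets this lean was not tested. The KRAB box member ZNF514 had 7.15, 7.60 and 7.90 CPM with GSK-591, against 11, 9.65 and 9.85 CPM in untreated cells, and the groups did not overlap. Its log2 fold change was -0.43 ± 0.07 (SE, adjusted p = 0.000102), and -0.34 against the other treated groups (adjusted p = 0.000321). The X-linked ZNF711 had 26.8, 26.5 and 25.7 CPM with GSK-591, against 37.2, 32.8 and 32.6 CPM in untreated cells (log2 fold change -0.38, adjusted p = 8.58e-05), and came to -0.18 with the GC trend removed (adjusted p = 0.0132). Without GSK-591 replicate 1, 27 members were lower, and without Untreated replicate 1, 22. Over all genes the shares lower were 10.0 and 8.8% in these fits.

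MS023, the inhibitor of type I arginine methyltransferases, gave 50 higher and 85 lower members against untreated cells (15.5 and 26.4%), with 22% of all genes higher and 20.6% lower. KRAB box members made up 60 of the lower and 9 of the higher ones. In the second comparison 19 rose and 20 fell, with 8.88% of all genes higher and 5.68% lower, and KRAB box members were even at 10 and 10. ZNF717, a KRAB box member with shared reads in 5 libraries, had 8.62, 8.15 and 8.60 CPM with MS023, against 12.6, 12.7 and 11.5 CPM in untreated cells (log2 fold change -0.54 ± 0.10, adjusted p = 0.000151), and the groups did not overlap. ZNF512 had 70.8, 67.9 and 68.3 CPM with MS023, against 58.0, 59.0 and 59.8 CPM in untreated cells (log2 fold change 0.23 ± 0.05, adjusted p = 0.000489). ZNF76, the close relative of ZNF143, had 15.3, 14.6 and 14.4 CPM with MS023, against 11.3, 10.6 and 10.3 CPM in untreated cells (0.46 ± 0.08, adjusted p = 4.38e-05). ZNF512 came to 0.35 and ZNF76 to 0.27 with the GC trend removed (adjusted p = 2.69e-05 and 0.0173). Without MS023 replicate 2, 54 members were lower, and without Untreated replicate 1, 53. Over all genes the shares lower were 14.7 and 15.2% in these fits.

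GSK-484, the PADI4 inhibitor, changed the fewest members. Against untreated cells 27 rose and 18 fell (8.39 and 5.59%), with 11.4% of all genes higher and 7.66% lower. In the second comparison 1 rose and 1 fell, with 0.103% of all genes higher and 0.164% lower. These were the KRAB box member ZNF544, with 43.1, 39.0 and 42.2 CPM with GSK-484, against 35.3, 37.7 and 36.8 CPM in untreated cells, and ZNF407, with 9.73, 9.67 and 9.55 CPM with GSK-484, against 11.8, 12.3 and 11.6 CPM in untreated cells. Neither gene's libraries overlapped between the groups. Fitted alone with the untreated libraries, GSK-484 gave 0 higher and 0 lower members by edgeR, with 28 and 25 at an unadjusted p under 0.05; DESeq2 on all libraries called 27 and 20. Without Untreated replicate 1 there were 10 higher and 5 lower, without GSK-484 replicate 1 there were 5 lower and without its replicate 3 there were 33. Over all genes the shares were 4.18% higher and 1.88% lower without Untreated replicate 1. They were 3.63 and 8.52% lower without GSK-484 replicates 1 and 3. ZNF407 came to -0.21 against untreated cells with the GC trend removed (adjusted p = 0.129). ZNF544 had an adjusted p of 0.0572 without GSK-484 replicate 1 and 0.0674 without Untreated replicate 1.

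**Figure D5:**
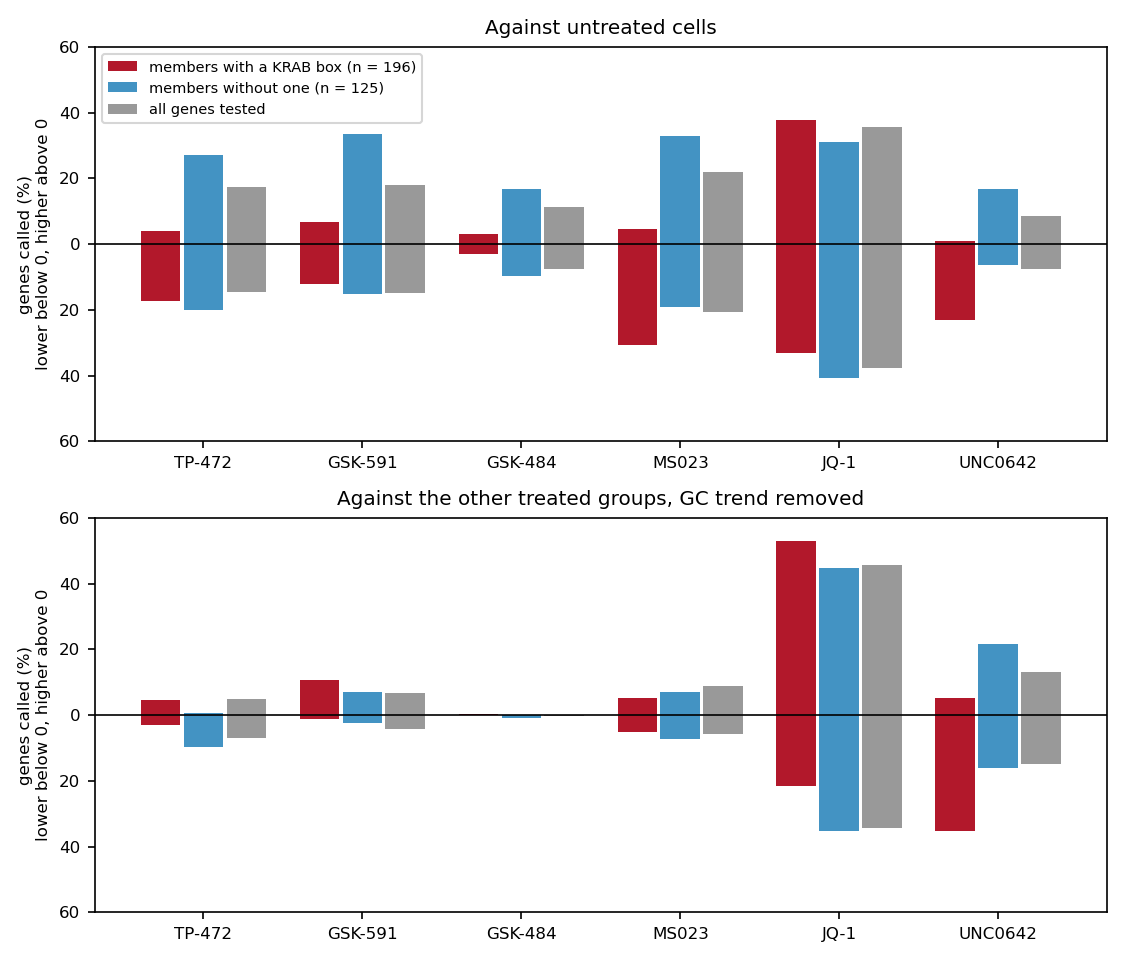
Share of genes called higher (above 0) or lower (below 0) with each compound for KRAB box members, members without the box and all genes tested, against untreated cells (top) and against the other treated groups after removal of the GC trend (bottom). In the top panel KRAB box members are lower more often than higher for TP-472, GSK-591, MS023 and UNC0642, and in the bottom panel that gap remains for UNC0642 (10 higher and 69 lower of 196).

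The RNA of 27 genes whose proteins work with KRAB zinc finger proteins was measured in the same libraries, and all 27 were tested. With JQ-1, 8 of them rose and 12 fell against untreated cells (29.6 and 44.4%), with 35.7 and 37.6% over all genes tested. TRIM28 itself averaged 751.9 CPM with JQ-1 and 418.6 CPM in untreated cells, a log2 fold change of 0.85 (adjusted p = 8.04e-14). SETDB1, its methyltransferase, averaged 24.8 CPM with JQ-1 and 37.3 CPM in untreated cells (-0.59, adjusted p = 1.08e-11). SUV39H1, another H3 lysine 9 methyltransferase, averaged 11.3 CPM with JQ-1 and 25.9 CPM in untreated cells (-1.20, adjusted p = 2.06e-13), and the NuRD subunit CHD3 31.6 CPM with JQ-1 and 68.6 CPM in untreated cells (-1.12, adjusted p = 1.93e-14). Of the HP1 genes, CBX1 had a log2 fold change of 0.12 with JQ-1 (adjusted p = 0.0114), CBX3 of 0.03 (adjusted p = 0.41) and CBX5 of -0.01 (adjusted p = 0.944). In the second comparison all 3 rose, by 0.24, 0.25 and 0.23 on the log2 scale (adjusted p = 1.39e-07, 2.01e-08 and 5.67e-05).

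With UNC0642, 5 of the 27 partners rose and 5 fell against untreated cells (18.5% each, with 8.71 and 7.54% over all genes). Against the other treated groups 4 rose and 8 fell (14.8 and 29.6%, with 13.2 and 14.8% over all genes). The targets EHMT1 and EHMT2 averaged 77.5 and 86.0 CPM with UNC0642, against 67.3 and 76.3 CPM in untreated cells (adjusted p = 0.00725 and 0.0202). Against the other treated groups their log2 fold changes were 0.07 (adjusted p = 0.16) and 0.03 (adjusted p = 0.621). TRIM28 averaged 466.3 CPM with UNC0642 and 418.6 CPM in untreated cells (0.16, adjusted p = 0.022), and had the opposite sign against the other treated groups, at -0.09 (adjusted p = 0.00426).

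Zinc finger genes of the ZKSCAN, ZSCAN, ZFP and ZBTB names, 60 at the same threshold, were set beside the members. With UNC0642, 4 of the 60 rose and 5 fell against untreated cells (6.67 and 8.33%, with 8.71 and 7.54% over all genes), and 15 rose and 6 fell in the second comparison (25% and 10%, with 13.2 and 14.8%). With JQ-1, 27 rose and 24 fell against untreated cells (45% and 40%, with 35.7 and 37.6%). Among them 5 ZKSCAN genes rose and 2 fell of 7, 7 ZSCAN genes rose and 1 fell of 10, 5 ZFP genes rose and 4 fell of 14, and 10 ZBTB genes rose and 17 fell of 29. Whether these families differ from the members was not tested.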

How the data were processed

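Gene by gene, the deposited matrix lists unscaled expected counts. Bowtie2 2.1.0, RSEM 1.2.15 and build hg38 are named in the submitters' processing notes; the sources used here do not give the authors' annotation and settings. RSEM divides reads that fit several genes among them. Depth was 20978182 to 78776788 counts per library. The members and lists were chosen with earlier results of these data known, so no count over them is independent evidence.

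Expected counts were rounded. Genes of low counts were dropped (filterByExpr, at least 10 in enough libraries and 15 in total), and CPM are scaled by TMM in edgeR 4.0.16. The members' threshold used counts over column totals. One model by group held all 21 libraries, and the contrasts (compound minus untreated) used edgeR's quasi-likelihood test, two-sided, with Benjamini-Hochberg adjustment over 15062 genes. The second comparison took the mean of the other treated groups without JQ-1 (for JQ-1 the other 5) as the reference, after a loess trend of log2 CPM (prior count 2, span 0.3) on GC content was removed from each library. Its 14599 genes (96.9%) had GC content in GENCODE 29. The KRAB box (at least 11 of 15 positions) and fingers were searched in translated GENCODE 29 coding sequences, which also gave hg38 positions; SCAN and other domains were not searched.

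Named are, per compound, called members without overlap between groups (the 10 largest rises and falls with JQ-1, 4 of each otherwise), the 3 largest of each direction called in both comparisons, the 8 highest per kilobase, the genes next to the threshold, members of known role and the partners; the text gives part of them. Same-numbered replicates did not deviate together (correlations of -0.13 to 0.12 for each compound's and the untreated library of 1 number), so no block was used. Alternatives were DESeq2 1.42.0, other scalings and filters, thinning, a replicate block, other member thresholds, whole counts and leaving out each library. The fit was tested on simulated data. R 4.3.3, Python 3.11.15 and Biopython were used.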

Additional observations from a re-analysis of the deposited data

How the results depend on the processing

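Of the alternative values of 16 counts of called members, 231 of 312 lay within 1.5 times the reported one. Counts for KRAB box members were added after seeing the data. Leaving out 1 library gave, higher and lower, 27 to 40 and 20 to 62 (TP-472), 40 to 49 and 22 to 48 (GSK-591), 10 to 28 and 5 to 33 (GSK-484), 41 to 52 and 53 to 84 (MS023), 102 to 115 and 112 to 117 (JQ-1) and 12 to 20 and 23 to 55 (UNC0642). It gave 19 to 49 lower KRAB box members with UNC0642 (14 to 37 on chromosome 19), and 63 to 76 higher with JQ-1 (45 to 56 on chromosome 19). Shares over all genes moved in these fits too, for TP-472 from 7.95 to 15.4% lower. With the GC trend removed there were 8 higher and 17 lower (TP-472), 17 lower (GSK-591), 2 and 2 (GSK-484), 26 and 33 (MS023), and 5 and 20 (UNC0642), with 18 lower KRAB box members, 14 on chromosome 19. The replicate block changed no count by more than 1.5 times (JQ-1 113 higher and 117 lower); with the replicate block and the GC trend removed there were 7 and 16 (TP-472), 16 lower (GSK-591), 0 and 0 (GSK-484), 25 and 30 (MS023), and 3 and 18 (UNC0642), with 17 lower KRAB box members, 14 on chromosome 19. With the other treated groups as the reference there were 6 and 9 (TP-472), 21 and 4 (GSK-591), 1 and 0 (GSK-484), 15 and 33 (MS023) and 43 higher (UNC0642). With the GC trend also removed there were 10 and 18 (TP-472), 30 and 5 (GSK-591), 1 and 1 (GSK-484), 19 and 20 (MS023), and 37 and 89 (UNC0642), with 69 lower KRAB box members, 58 on chromosome 19. Counting only the 166 of 322 members with whole counts gave 34 lower (TP-472), 20 lower (GSK-591), 10 lower (GSK-484), 36 lower (MS023), 52 higher and 71 lower (JQ-1) and 17 lower (UNC0642). Among these were 10 lower KRAB box members with UNC0642 (5 on chromosome 19) and 25 higher with JQ-1 (14 on chromosome 19). A smaller set lowers a count by itself, so these counts do not show that the share called changed. Total-count scaling gave 36 and 66 (GSK-591), 17 higher (GSK-484), 14 higher (UNC0642) and 48 higher and 83 lower KRAB box members with JQ-1 (35 and 48 on chromosome 19), which turns their balance round. Under that scaling the median of all genes moves to -0.15 (log2) with JQ-1, and members without the box came to 31 higher and 61 lower. GSK-484 fitted alone with untreated cells gave 0 and 0 by edgeR. At an unadjusted p under 0.05 it gave 28 and 25, and the block with the GC trend removed 33 and 19; DESeq2 on all libraries called 27 and 20. The cause of these shifts was not tested, beyond the smaller sets and fewer libraries.

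Of 73 named pairs of member and compound, none changed sign when a library was left out. Most of these pairs were picked for lack of overlap between compound and untreated libraries. Leaving out a library could therefore hardly turn their sign, and the lack of change adds no support for them. With the other reference, 12 values changed sign. With that reference the log2 fold change of ZNF205 was -0.0341 with TP-472, -0.0791 with GSK-484 and -0.10 with UNC0642, and with the GC trend also removed -0.039, -0.0573 and, with MS023, -0.0705. ZNF414 with GSK-484 came to -0.0421 and -0.0199, ZNF850 with GSK-484 to 0.14 and 0.10, ZNF358 with GSK-484 to -0.009 and ZNF219 with UNC0642 to -0.0544. The spread within groups was a median of 6.51% of a member's level, which at this depth limits what can be told apart.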
